A study of Mus musculus with 15 samples.

Results

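The genes described here carry or regulate salt transport in the thick ascending limb of the kidney tubule. They are the 8 rows of the deposited mouse table with the symbols Umod, Slc12a1, Kcnj1, Bsnd, Cldn10, Cldn16, Cldn19 and Ptger3, out of 23284 genes in all. The members were named by symbol and not by their values. RNA sequencing was done on kidney tissue of wild-type (WT) mice, with 15 libraries in 3 groups of 5, labelled Vehicle, L-ala and D-ala, all at 2 h. L-alanine and D-alanine are mirror-image forms of 1 amino acid. The labels state neither dose, route nor vehicle composition, and no age, sex or strain of the mice. Matched doses can therefore not be assumed, and the groups are compared as labelled. Nothing in the labels ties each library to an animal of its own, so the p-values measure the spread between libraries, which may be partly technical. Replicate numbers follow accession order and only name a library.

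The thick ascending limb is the last part of the loop of Henle, between the thin limb and the distal convoluted tubule, and reabsorbs salt without water. The apical cotransporter encoded by Slc12a1 (NKCC2, the target of loop diuretics) brings in sodium, potassium and chloride, and the potassium channel encoded by Kcnj1 (ROMK) returns potassium to the lumen. Bsnd encodes barttin, a subunit that chloride exit across the basolateral membrane requires. The resulting lumen-positive voltage drives cations through the tight junction, where claudin-10b carries sodium and claudin-16 with claudin-19 passes calcium and magnesium. Umod encodes uromodulin, the most abundant protein of normal urine, which these cells secrete. Ptger3 encodes the prostaglandin E2 receptor EP3, which opposes cyclic AMP signalling there.

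Levels are given in FPKM, which scales fragments to transcript length and library depth, with mean ± SD per group. Libraries held between 7.57 and 10.9 M recovered reads. Every member reached at least 1 FPKM in 15 of 15 libraries, so all 8 passed the filter on low values without regard to group. Their levels per length over the 15 libraries covered a wide range. Umod averaged 1267 FPKM and ranked 58th of the genes in the table. Cldn10 averaged 212 FPKM and Slc12a1 166 FPKM, and their library values overlapped, at 197 to 243 and 110 to 224 FPKM. Kcnj1 averaged 92.4 FPKM, with its highest library at 110 FPKM, level with the lowest Slc12a1 library. Bsnd followed at 19.9 FPKM, Ptger3 at 15.03 FPKM, Cldn19 at 14.97 FPKM and Cldn16 at 11.3 FPKM, and the ranges of neighbours in this order overlapped, while every Bsnd library lay above every Cldn16 library. No library value of Umod overlapped those of Cldn10, and none of Kcnj1 overlapped those of Bsnd. Egf, a growth factor made by the same segment and the distal convoluted tubule, averaged 273 FPKM.

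Uromodulin transcripts were lower in the L-ala group than with vehicle. The vehicle libraries held 1399.9, 1453, 1398, 1628 and 1411 FPKM of Umod (1458 ± 97.4, n = 5). In the L-ala libraries the values were 1208, 1253, 954, 848 and 1213 FPKM (1095 ± 182, n = 5). Every L-ala library lay below every vehicle library, and replicates 3 and 4 were the lowest. The log2 fold change was -0.43 with a standard error (SE) of 0.12 (95% interval -0.69 to -0.16, limma adjusted p = 0.0395). The D-ala libraries held 1282, 952, 1368, 1523 and 1109 FPKM (1247 ± 223, n = 5). They spanned nearly the whole range of both other groups, with replicate 4 above 4 of the 5 vehicle libraries and replicate 2 level with the lower L-ala libraries. D-ala against vehicle gave -0.24 (95% interval -0.51 to 0.02, limma adjusted p = 0.230), which did not pass.

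The L-ala call on Umod was a marginal one. It was lost in 13 of 27 alternative settings, with adjusted p between 0.0215 and 0.109 and a log2 fold change between -0.59 and -0.34. Leaving out any 1 of 9 libraries ended it: each vehicle library, L-ala replicates 1, 3 and 4 and D-ala replicate 1. The limma adjusted p was highest, at 0.109, without L-ala replicate 4, and was 0.108 without vehicle replicate 4. In bulk tissue, fewer cells of a type and less RNA per cell cannot be told apart.

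**Figure D1:**
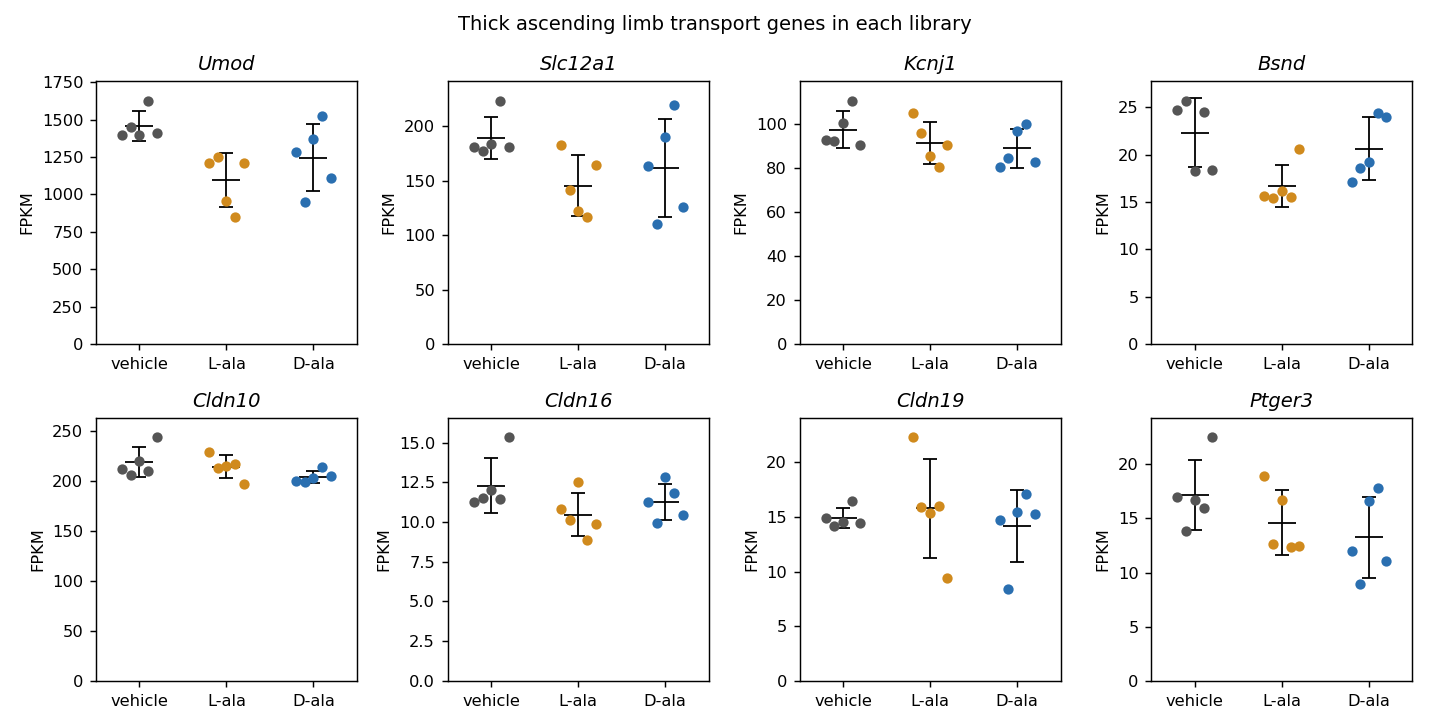
FPKM of the 8 genes in each library (points), with the mean and SD of each group of 5 (bar and whiskers). Umod is the gene whose L-ala points all lie below its vehicle points, and for Bsnd 4 of the 5 L-ala points lie together near 15.4 to 16.1 FPKM.

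The cotransporter gene Slc12a1 followed Umod closely in level from library to library. With vehicle it stood at 181, 177, 184, 224 and 181 FPKM (189 ± 19.3, n = 5). With L-ala it stood at 183, 142, 122, 117 and 165 FPKM (146 ± 28.1, n = 5), where only replicate 1 reached the vehicle range. With D-ala the values were 163, 110, 190.0, 220 and 126 FPKM (162 ± 44.98, n = 5), the widest spread of the 3 groups. Neither difference from vehicle passed: the log2 fold change was -0.39 for L-ala (95% interval -0.75 to -0.04, limma adjusted p = 0.129) and -0.27 for D-ala (95% interval -0.63 to 0.09, limma adjusted p = 0.337). An adjusted p above the threshold does not show that the groups were alike, and the L-ala interval holds falls as large as that of Umod.

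The potassium channel gene Kcnj1 varied less than the cotransporter. Its vehicle libraries lay at 92.5, 91.95, 100.3, 110 and 90.5 FPKM (97.1 ± 8.39, n = 5). The L-ala libraries lay at 105, 95.9, 85.4, 80.3 and 90.1 FPKM (91.4 ± 9.58, n = 5). The D-ala libraries lay at 80.5, 84.5, 96.6, 99.6 and 82.6 FPKM (88.8 ± 8.70, n = 5). All 3 groups overlapped, and neither difference passed (log2 fold change -0.09 for L-ala with limma adjusted p = 0.476, and -0.13 for D-ala with limma adjusted p = 0.333). Compared within each library, log2(FPKM + 1) of Kcnj1 minus that of Slc12a1 averaged -0.65 ± 0.16 under L-ala and -0.96 ± 0.06 under vehicle (SD, n = 5 each), and the libraries did not overlap. The exact two-sided permutation p was 0.00794, the smallest that 5 against 5 libraries allow, and 0.0714 after adjustment over 18 such tests of 6 gene pairs, 1 of which is not reported. None of the 18 passed the adjustment.

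Barttin transcripts were also lower with L-ala. Bsnd stood at 24.7, 25.7, 18.3, 24.5 and 18.4 FPKM with vehicle (22.3 ± 3.67, n = 5). It stood at 15.6, 15.4, 16.1, 15.6 and 20.6 FPKM with L-ala (16.7 ± 2.203, n = 5). Replicates 1 to 4 of L-ala lay below every vehicle library, while replicate 5 lay above 2 of them, so the groups overlapped. The log2 fold change was -0.39 with an SE of 0.12 (95% interval -0.65 to -0.14, limma adjusted p = 0.0446). As with Umod the call was marginal: 14 of 27 alternatives lost it, with adjusted p between 0.0119 and 0.117. Among them were the absence of vehicle replicates 1, 2 or 4, of L-ala replicates 1 to 4 and of D-ala replicate 3, and the limma adjusted p of 0.117 was the one without vehicle replicate 4. The D-ala libraries held 17.1, 18.5, 19.2, 24.4 and 23.9 FPKM of Bsnd (20.6 ± 3.31, n = 5), and the difference from vehicle did not pass (log2 fold change -0.11, limma adjusted p = 0.621).

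Among the claudins, none passed in any comparison. Cldn10 had the narrowest range of the members over the 15 libraries, its highest library at 1.24 times its lowest, with means of 218 ± 14.95 FPKM with vehicle, 214 ± 11.5 with L-ala and 204 ± 5.92 with D-ala (SD, n = 5 each). Its D-ala libraries lay between 199 and 214 FPKM and its vehicle libraries between 206 and 243 FPKM. The log2 fold change was -0.10 for D-ala (limma adjusted p = 0.287) and -0.03 for L-ala (limma adjusted p = 0.761). Under quantile normalization Cldn10 passed as lower in both treated groups, at -0.20 for D-ala (limma adjusted p = 0.0163) and -0.20 for L-ala (limma adjusted p = 0.0364). With the length trend removed it also passed as lower with L-ala, at -0.175 (limma adjusted p = 0.0380).

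Cldn16 held 11.3, 11.5, 11.99, 11.4 and 15.3 FPKM with vehicle (12.3 ± 1.72, n = 5). It held 10.8, 10.1, 12.5, 8.88 and 9.89 FPKM with L-ala (10.4 ± 1.35, n = 5) and 11.3, 9.95, 12.9, 11.8 and 10.4 FPKM with D-ala (11.3 ± 1.15, n = 5). The groups overlapped. Cldn16 was the scarcest member, with about 113 recovered reads per library, for which counting error alone gives a coefficient of variation of 9.42%. The L-ala difference of -0.22 on the log2 scale (limma adjusted p = 0.138) passed only with the length trend removed (-0.35, limma adjusted p = 0.0420).

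Cldn19, the partner of claudin-16, averaged 14.9 ± 0.910 FPKM with vehicle, 15.8 ± 4.55 with L-ala and 14.2 ± 3.33 with D-ala (SD, n = 5 each). The vehicle libraries were close together, at 14.2 to 16.5 FPKM, while the L-ala libraries ran from 9.46 FPKM in replicate 5 to 22.3 FPKM in replicate 1. The deposited FPKM and count columns disagreed for this gene: the count per FPKM in the highest library was 57.0% above that in the lowest. For Cldn10 that spread was 6.42%, and for the other members at most 0.835%. The log2 fold change of Cldn19 for L-ala against vehicle was 0.03 on FPKM and -0.13 on the count column, so no direction is given for it.

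The receptor gene Ptger3 stood at 16.98, 13.8, 16.7, 16.01 and 22.5 FPKM with vehicle (17.2 ± 3.22, n = 5). With L-ala it stood at 18.9, 12.7, 16.7, 12.3 and 12.5 FPKM (14.6 ± 3.002, n = 5), and with D-ala at 12.004, 8.96, 16.6, 17.8 and 11.1 FPKM (13.3 ± 3.75, n = 5). The lowest values were those of D-ala replicates 2 and 5, and the groups overlapped. The D-ala difference of -0.37 on the log2 scale (95% interval -0.74 to -0.01) did not pass (limma adjusted p = 0.182). For L-ala it was -0.22 (limma adjusted p = 0.397).

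The counts of members called were set against the shares of all genes tested. For L-ala against vehicle 2 of 8 members passed, both lower, where 4.53% of the 11781 genes tested passed as lower and 6.48% as higher. That count was 0 of 8 when vehicle replicate 1, 2 or 4 or L-ala replicate 1, 3 or 4 was left out. An unadjusted limma p under 0.05 was found for 4 of 8 members (Umod, Bsnd, Slc12a1 and Cldn16) where 30.5% of genes had one. For D-ala against vehicle 0 of 8 passed where 11.5% of genes did, and 1 of 8 (Ptger3) was under an unadjusted limma p of 0.05 where 26.5% of genes were. For D-ala against L-ala 0 of 8 passed where 13.7% of genes did, and 1 of 8 (Bsnd) was under an unadjusted limma p of 0.05 where 30.8% of genes were. The libraries of L-ala and vehicle did not overlap for 1 of 8 members, Umod, which was lower, whereas 3.23% of genes did not overlap with L-ala lower and 4.01% with L-ala higher. For D-ala, 0 of 8 members were without overlap against vehicle and 0 of 8 against L-ala, where 10.9% and 9.11% of genes were. Differences from vehicle lay below 0 for 8 of 8 members with D-ala (median log2 fold change -0.12) and for 7 of 8 with L-ala (median -0.22). Over all genes tested these shares were 49.6% and 48.5%, with medians of 0.00 and 0.01. Both member counts include Cldn19, whose sign was not stable. Its D-ala value of -0.10 was 0.063 without D-ala replicate 2. Its L-ala value of 0.03 was -0.129 on the count column. Both comparisons use the same vehicle libraries, and some members vary together from library to library, so these counts are not independent of each other.

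**Figure D2:**
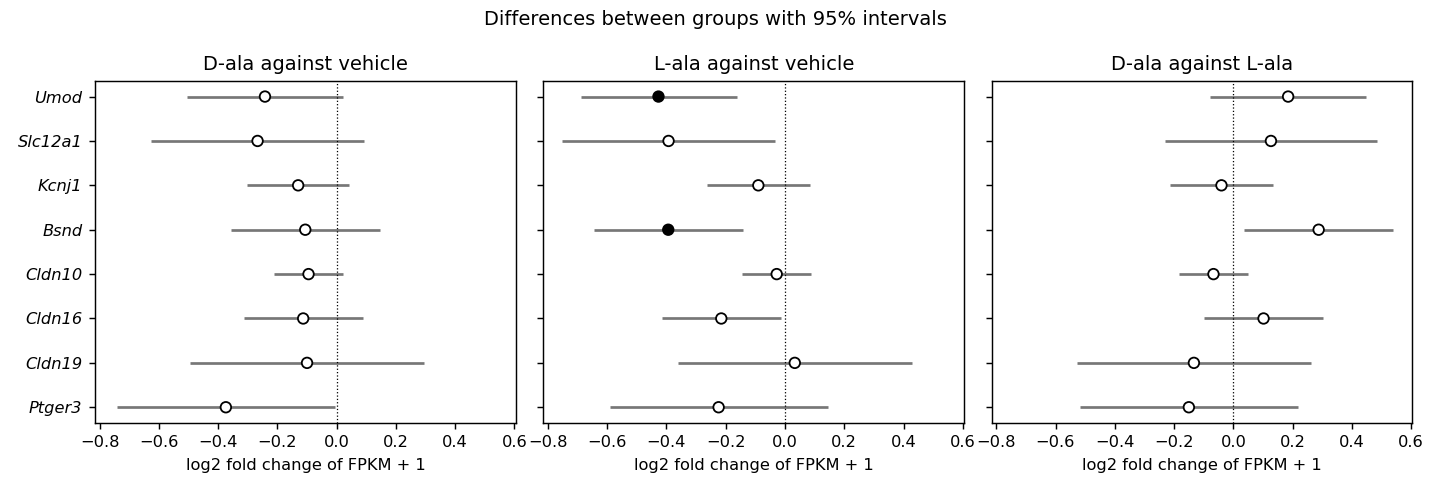
Log2 fold change of FPKM + 1 (points) with 95% intervals (lines) of the 8 genes in the 3 comparisons, with filled points for an adjusted p under 0.05. Umod and Bsnd are filled for L-ala against vehicle, and no gene is filled in the other panels.

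The direct comparison of the mirror-image forms gave log2 fold changes of both signs, 4 above 0 and 4 below (median 0.03, D-ala minus L-ala), where 52.0% of all genes tested lay below 0. Bsnd had the largest, at 0.29 (95% interval 0.04 to 0.54, limma adjusted p = 0.113), with means of 20.6 FPKM for D-ala and 16.7 FPKM for L-ala. Without L-ala replicate 5 it passed, at 0.36 (limma adjusted p = 0.0347). For Umod the difference was 0.18 (95% interval -0.08 to 0.45, limma adjusted p = 0.328), and for Slc12a1 0.13 (95% interval -0.23 to 0.48, limma adjusted p = 0.646). The intervals for the other 5 members included 0, the narrowest being that of Cldn10, from -0.18 to 0.05. So Umod and Bsnd passed against vehicle with L-ala and not with D-ala, yet their difference between the forms was not shown.

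Across libraries some pairs of members varied together. With each value centred on its group mean, Umod and Slc12a1 correlated at Pearson r = 0.92 (permutation p = 1e-05, the smallest that 100000 resamples can give; adjusted p = 0.00028 over 28 pairs) and Spearman rho = 0.87 (permutation p = 9e-05, adjusted p = 0.0025) over 15 libraries. Without the 2 libraries farthest from the median of Umod, r was 0.89. Slc12a1 and Kcnj1 had r = 0.78 (permutation p = 0.00084, adjusted p = 0.0078) and rho = 0.72 (permutation p = 0.00348, adjusted p = 0.032), and r = 0.80 without the 2 farthest libraries. Cldn16 and Ptger3 had r = 0.80 (permutation p = 0.00038, adjusted p = 0.0053) and rho = 0.79 (permutation p = 0.00099, adjusted p = 0.014), and r = 0.81 without the 2 farthest. Of the 28 pairs, 7 had an adjusted p under 0.05 for Pearson's r. The share among pairs of all genes tested was not computed, so this count cannot be set against it. Slc12a1 with Ptger3 was among them at r = 0.65 (permutation p = 0.00911, adjusted p = 0.041), but its rho of 0.63 had a permutation p = 0.0139 and an adjusted p = 0.078, and r was 0.40 without the 2 farthest libraries. The 7 also held Umod with Kcnj1 (r = 0.74, permutation adjusted p = 0.013), Cldn10 with Ptger3 (r = 0.70, 0.017) and Cldn19 with Ptger3 (r = 0.62, 0.041). For rho the permutation adjusted p of these pairs was 0.078, 0.12 and 0.20. Bsnd was in none of the 7 pairs. The mean of the z-scored members correlated at 0.13 with Bsnd, 0.86 with Slc12a1 and 0.88 with Ptger3. That mean includes the gene compared, which raises each of these values. All genes of a library share its RNA, its dissection and its scaling. The permutations mixed the centred values of all 15 libraries. Centred values sum to 0 within each group and their spread differed between groups, so these permutation p-values are approximate and may be too small.

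**Figure D3:**
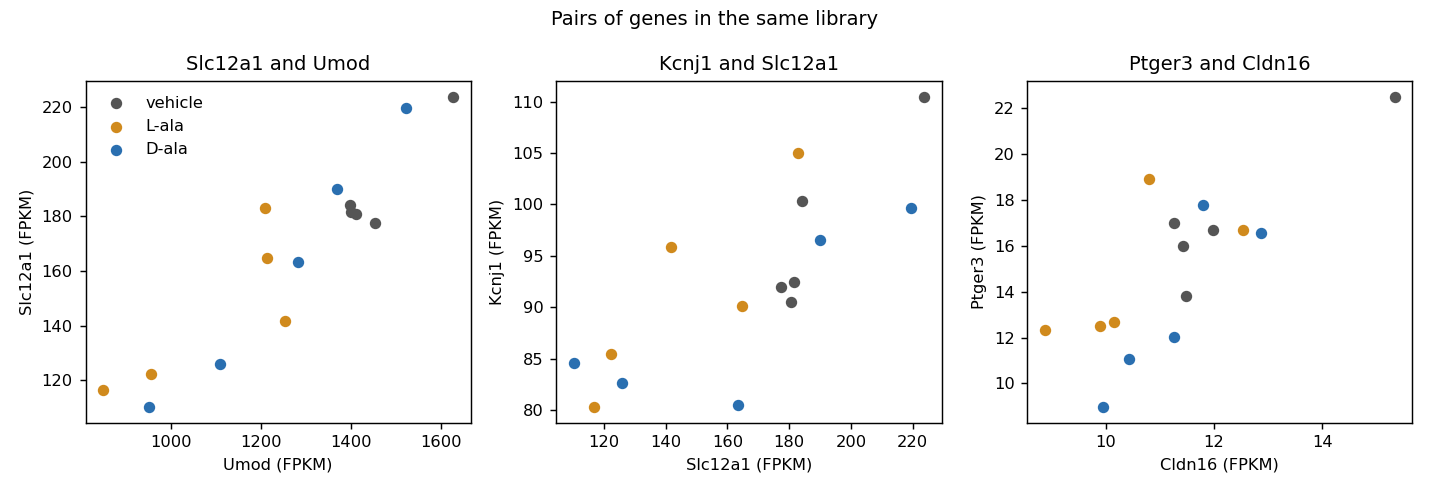
FPKM of 3 pairs of members in the same library, 1 point per library, coloured by group. Slc12a1 rises with Umod along 1 line through all 3 groups, and the lower end holds L-ala replicates 3 and 4 and D-ala replicates 2 and 5.

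The sequence before the start site is shown for Umod, Slc12a1, Kcnj1 and the upstream start of Cldn10. These are the members whose windows held the motif marked below. The choice does not follow the correlations. Cldn10 correlated with Umod, Slc12a1 and Kcnj1 at r = 0.01, 0.13 and 0.14. Cldn16 and Ptger3, which varied together at r = 0.80, had no such motif in their windows. The sequences come from RefSeq promoters on GRCm38.p6, in which 7 of the 8 members matched with 9 start sites in all. Each is read 5′ to 3′ on the gene's strand and ends at the RefSeq start or where an annotated exon begins. Capitals mark the short motif CCAAT, searched on both strands. These sequences and the motif were chosen after the values and the windows had been seen, out of 7 motifs whose results are given. The Umod sequence lies at chr7:119479283-119479512 on the minus strand, before a gene that spans 119462711 to 119479282. That of Slc12a1 lies at chr2:125152350-125152504 on the plus strand, before a gene that ends at 125230002. That of Kcnj1 lies at chr9:32393735-32393984 on the plus strand, within a gene annotated from 32372493 to 32399197. That of Cldn10 lies at chr14:118787621-118787870 on the plus strand, before a gene that ends at 118875489.
Umod: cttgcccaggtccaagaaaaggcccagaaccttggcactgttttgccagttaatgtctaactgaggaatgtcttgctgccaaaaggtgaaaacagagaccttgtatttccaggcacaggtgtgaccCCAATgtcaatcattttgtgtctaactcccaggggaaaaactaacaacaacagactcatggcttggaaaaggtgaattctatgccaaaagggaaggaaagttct
Slc12a1: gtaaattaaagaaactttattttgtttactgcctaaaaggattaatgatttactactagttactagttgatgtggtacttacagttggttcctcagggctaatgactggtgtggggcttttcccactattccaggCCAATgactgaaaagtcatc
Kcnj1: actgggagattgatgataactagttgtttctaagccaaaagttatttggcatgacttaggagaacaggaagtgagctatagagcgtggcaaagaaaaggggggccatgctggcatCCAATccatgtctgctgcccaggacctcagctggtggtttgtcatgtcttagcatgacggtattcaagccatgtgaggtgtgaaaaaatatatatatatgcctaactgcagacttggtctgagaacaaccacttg
Cldn10: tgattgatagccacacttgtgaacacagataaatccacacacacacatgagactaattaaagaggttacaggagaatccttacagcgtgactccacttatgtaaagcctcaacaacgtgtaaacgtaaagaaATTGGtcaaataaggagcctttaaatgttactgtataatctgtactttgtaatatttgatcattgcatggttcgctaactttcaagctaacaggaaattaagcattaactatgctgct
Over the full 250 bases before each start, CCAAT was found in 4 of 9 member windows, those of the 4 genes shown, and in 33.8% of 32851 RefSeq promoter windows. Cldn10 has 2 annotated starts 67.1 kb apart. The table gives 1 value per gene, so transcripts from the separate starts were not told apart. The Cldn10 values therefore need not be those of claudin-10b alone. In kidney tissue, which cells the reads of a gene came from was not measured. The other 6 motifs were found in 0 to 2 of the 9 member windows: the glucocorticoid response element, the kappa B site, TATAAA and TGACGTCA in 0, TGACG in 1 (17.8% of all windows) and TGTTCT in 2 (16.1% of all windows). A match is a string of letters, and whether a factor binds there was not measured.

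Apart from gene models with Gm or Rik symbols, the genes most like the members in their variation over the 15 libraries were Slc4a11 (r = 0.95 with the mean of the z-scored members, centred on group means), Angpt2 (0.92), Tmem207 (0.91), Sostdc1 (0.89) and Pla1a (0.89). Slc4a11 encodes a membrane transporter of the bicarbonate transporter family, and Angpt2 encodes angiopoietin-2, a vascular growth factor. Angpt2 fell with D-ala, from 5.89 ± 1.22 to 3.16 ± 1.20 FPKM (SD, n = 5 each; log2 fold change -0.75, limma adjusted p = 0.0114), a call that held in 27 of 27 alternatives. With L-ala it averaged 3.71 ± 0.802 FPKM (SD, n = 5; log2 fold change -0.55, 95% interval -0.92 to -0.18, limma adjusted p = 0.0532) and passed in 4 of 27 alternatives, and the treated groups did not differ beyond the threshold (limma adjusted p = 0.450). The other 4 did not pass in any comparison, although Tmem207 passed for D-ala against vehicle without D-ala replicate 4 (-0.75, limma adjusted p = 0.0418). Tmem207 lies next to Cldn16 on chromosome 16, at 26503656 to 26526769, and averaged 13.3 ± 3.09 FPKM with vehicle, 9.26 ± 1.70 with L-ala and 9.20 ± 4.20 with D-ala (SD, n = 5 each).

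Among the genes of the basolateral side, whose list is given only in part here, 1 of the 8 tested passed between the mirror-image forms, where 13.7% of all genes did. Fxyd2, the gamma subunit of the sodium pump, was lower with D-ala than with L-ala, at 5111 ± 140.1 against 7055 ± 1333 FPKM, beside 5820.1 ± 598 FPKM with vehicle (SD, n = 5 each; log2 fold change -0.44, limma adjusted p = 0.0237), and neither treated group passed against vehicle. The call was lost in 5 of 27 alternatives: without L-ala replicate 1, 3 or 4 (limma adjusted p up to 0.0660), with only the compared groups in the fit (limma adjusted p = 0.0518), and under quantile normalization, where the log2 fold change was -0.25 (limma adjusted p = 0.155).

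Genes of apical exchange and segment identity numbered 12 tested of 13, with 1 lower call against vehicle for each treatment, where 4.53% of all genes passed as lower with L-ala and 4.92% with D-ala. Slc9a3, the apical sodium-proton exchanger NHE3 that proximal tubule cells also express, fell with L-ala from 13.3 ± 2.13 to 7.90 ± 2.52 FPKM (SD, n = 5 each; log2 fold change -0.71, limma adjusted p = 0.0263). This call was lost without vehicle replicate 2 or 4 or L-ala replicate 1, 3 or 4 (limma adjusted p up to 0.0777). Ppp1r1b, a phosphatase inhibitor also known as DARPP-32, fell with D-ala from 52.6 ± 3.51 to 37.3 ± 8.30 FPKM (SD, n = 5 each; log2 fold change -0.51, limma adjusted p = 0.0170), and this call held in 27 of 27 alternatives. In this list 11 of 12 differences lay below 0 with L-ala (median -0.19) and 8 of 12 with D-ala (median -0.08), beside 48.5% and 49.6% of all genes tested. Egf stood at 281 ± 22.1 FPKM with vehicle, 237 ± 50.03 with L-ala and 301 ± 59.5 with D-ala (SD, n = 5 each), and it did not pass in any comparison.

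The kinases and trafficking factors of the cotransporter gave 1 call among 14 tested for D-ala against vehicle, where 11.5% of all genes passed, and 0 in the other comparisons. Wnk4, a kinase upstream of the cotransporters, was higher with D-ala, at 34.7 ± 2.05 against 29.3 ± 3.70 FPKM (SD, n = 5 each; log2 fold change 0.24, limma adjusted p = 0.0426), a call lost in 13 of 27 alternatives, 8 of which left out 1 library (limma adjusted p up to 0.106). Stk39, which encodes the kinase SPAK that phosphorylates NKCC2, stood at 12.3 ± 1.27, 10.96 ± 0.808 and 11.6 ± 1.12 FPKM with vehicle, L-ala and D-ala (SD, n = 5 each) and did not pass.

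Among the 13 tested genes of hormone and prostaglandin signalling, Ptger1, another prostaglandin E2 receptor, fell in both treated groups. It averaged 9.12 ± 1.15 FPKM with vehicle, 5.94 ± 0.623 with L-ala and 6.34 ± 0.932 with D-ala (SD, n = 5 each). The log2 fold change was -0.54 for L-ala (limma adjusted p = 0.00566) and -0.46 for D-ala (limma adjusted p = 0.00574), and both calls held in 27 of 27 alternatives. With L-ala Pth1r, the parathyroid hormone receptor, rose from 300.3 ± 17.7 to 357 ± 22.3 FPKM (SD, n = 5 each; log2 fold change 0.25, limma adjusted p = 0.0216), and Adcy6, an adenylyl cyclase, fell from 21.3 ± 1.05 to 17.1 ± 2.61 FPKM (log2 fold change -0.31, limma adjusted p = 0.0259). Leaving out vehicle replicate 4 or L-ala replicate 1 or 4 ended both calls, and Adcy6 was also lost without vehicle replicates 1 or 2 or L-ala replicate 3 (limma adjusted p up to 0.0698 for Pth1r and 0.0716 for Adcy6). The Pth1r call was also lost without the 3 libraries of lowest depth (limma adjusted p = 0.0545) and under quantile normalization, where the log2 fold change was 0.05 (limma adjusted p = 0.658). The Adcy6 call was also lost with only the compared groups (limma adjusted p = 0.0645) and with the length trend removed (limma adjusted p = 0.0546). Adcy6 was higher with D-ala, at 21.2 FPKM, than with L-ala (0.30 on the log2 scale, limma adjusted p = 0.0221), a call lost in 4 of 27 alternatives. Casr, the calcium-sensing receptor, did not pass in any comparison, at 3.97 ± 0.405, 3.55 ± 1.18 and 4.87 ± 0.743 FPKM with vehicle, L-ala and D-ala (SD, n = 5 each). Without L-ala replicate 5 it passed for D-ala against L-ala, at 0.51 (limma adjusted p = 0.0134). Cldn14, the claudin that blocks claudin-16 and claudin-19 pores, was at 0 to 0.38 FPKM and was not tested.

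The other claudins and tight junction genes gave 15 tested members, of which 2 passed as lower with each treatment, where 4.53% (L-ala) and 4.92% (D-ala) of all genes did. With D-ala Cldn12 fell from 28.7 ± 0.864 to 22.7 ± 0.882 FPKM (SD, n = 5 each; log2 fold change -0.33, limma adjusted p = 0.00055) without overlap and in 27 of 27 alternatives, and Marveld2 (tricellulin) fell from 7.27 ± 0.819 to 5.64 ± 0.382 FPKM (log2 fold change -0.31, limma adjusted p = 0.0326). The Marveld2 call was lost in 6 of 27 alternatives, each with 1 library left out. With L-ala Tjp1 (ZO-1) fell from 5.27 ± 0.536 to 4.07 ± 0.457 FPKM (SD, n = 5 each; log2 fold change -0.31, limma adjusted p = 0.0220) and Ocln (occludin) from 9.97 ± 1.15 to 7.28 ± 1.52 FPKM (log2 fold change -0.42, limma adjusted p = 0.0234). Leaving out vehicle replicate 4 or L-ala replicate 1 or 4 ended both calls, and Ocln was also lost without L-ala replicate 3 (limma adjusted p up to 0.0708 for Tjp1 and 0.0740 for Ocln). With only the compared groups the limma adjusted p was 0.0525 for Tjp1 and 0.0565 for Ocln, and Tjp1 was also lost under quantile normalization (limma adjusted p = 0.05001) and with the length trend removed (-0.20, limma adjusted p = 0.0790). Between the forms, Cldn12 (-0.19, limma adjusted p = 0.0218) and Cldn7 (-0.28, limma adjusted p = 0.0332) were lower with D-ala than with L-ala. Of 27 alternatives, 4 lost the first of these calls and 10 lost the second, which was -0.155 with the length trend removed (limma adjusted p = 0.196).

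Summed markers of other kidney cells differed in mean between the groups too, and the sums themselves were not tested. Mean sums in both treated groups were below vehicle for the thin limb and above it for the proximal tubule, distal convoluted tubule and intercalated cells. Summed thin limb markers, 7 of 8 in the table, ran from 241 to 305 FPKM with vehicle, 166 to 226 with L-ala and 174 to 286 with D-ala. Cryab, a small heat shock protein, made up most of that sum, at 217 FPKM with vehicle and 152 FPKM with L-ala on average. Summed proximal tubule markers (12 of 12 in the table) ran from 3899 to 4397 FPKM with vehicle, 4464 to 4918 with L-ala and 4346 to 4938 with D-ala. Summed distal convoluted tubule markers (8 of 8) ran from 360.2 to 413 FPKM with vehicle, 432 to 458 with L-ala and 432 to 591 with D-ala. With L-ala 0 of these 8 passed against vehicle, where 6.48% of all genes passed as higher. Their L-ala differences lay above 0 for 6 and below 0 for 2. Calb1 averaged 175 FPKM with L-ala and 138 with vehicle, while Slc12a3 averaged 131.9 and 131.0. With D-ala 3 of 8 passed as higher, where 11.5% of all genes passed in either direction. Summed intercalated cell markers (9 of 9) ran from 165 to 178 FPKM with vehicle, 180.3 to 201 with L-ala and 180.3 to 212 with D-ala. Against vehicle 1 of these 9 passed as higher with L-ala and 3 of 9 with D-ala. Summed principal cell markers (9 of 9) overlapped among the groups, at 564 to 720.2 FPKM with vehicle, 553 to 677 with L-ala and 535 to 607 with D-ala. That sum holds opposite calls for D-ala against vehicle. Aqp2 passed as lower, at 214 against 290 FPKM on average. Scnn1b (26.3 against 21.2 FPKM) and Scnn1g (19.65 against 14.9 FPKM) passed as higher. The other 6 did not pass, where 11.5% of all genes passed.

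Among cells outside the tubule, summed endothelial markers (7 of 7) ran from 92.7 to 158 FPKM with vehicle, 58.1 to 132 with L-ala and 66.8 to 99.1 with D-ala. Macrophage markers (6 of 7 in the table) ran from 64.6 to 89.0 FPKM with vehicle, 55.7 to 75.7 with L-ala and 44.7 to 63.99 with D-ala. Podocyte markers (7 of 7) ran from 49.6 to 85.4 FPKM with vehicle, 69.3 to 84.5 with L-ala and 90.6 to 132 with D-ala, so that D-ala and vehicle did not overlap for either of these sums. Fibroblast and pericyte markers (7 of 7) ran from 26.7 to 44.1 FPKM with vehicle, 21.1 to 41.1 with L-ala and 22.2 to 30.8 with D-ala, and adipocyte markers (7 of 7) from 99.8 to 433, 146 to 242 and 70.5 to 499 FPKM. Red blood cell markers (7 of 9 in the table) ran from 27.4 to 264 FPKM with vehicle, 272 to 755 with L-ala and 44.9 to 467 with D-ala. Neutrophil markers (5 of 6 in the table) ran from 0.641 to 7.72 FPKM with vehicle, 13.2 to 35.2 with L-ala and 2.39 to 11.4 with D-ala. No marker in the table was at 0 in every library. Macula densa sums (5 of 5) stayed between 3.13 and 5.24 FPKM. The part of these cell types in the Umod and Bsnd results was not tested.

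**Figure D4:**
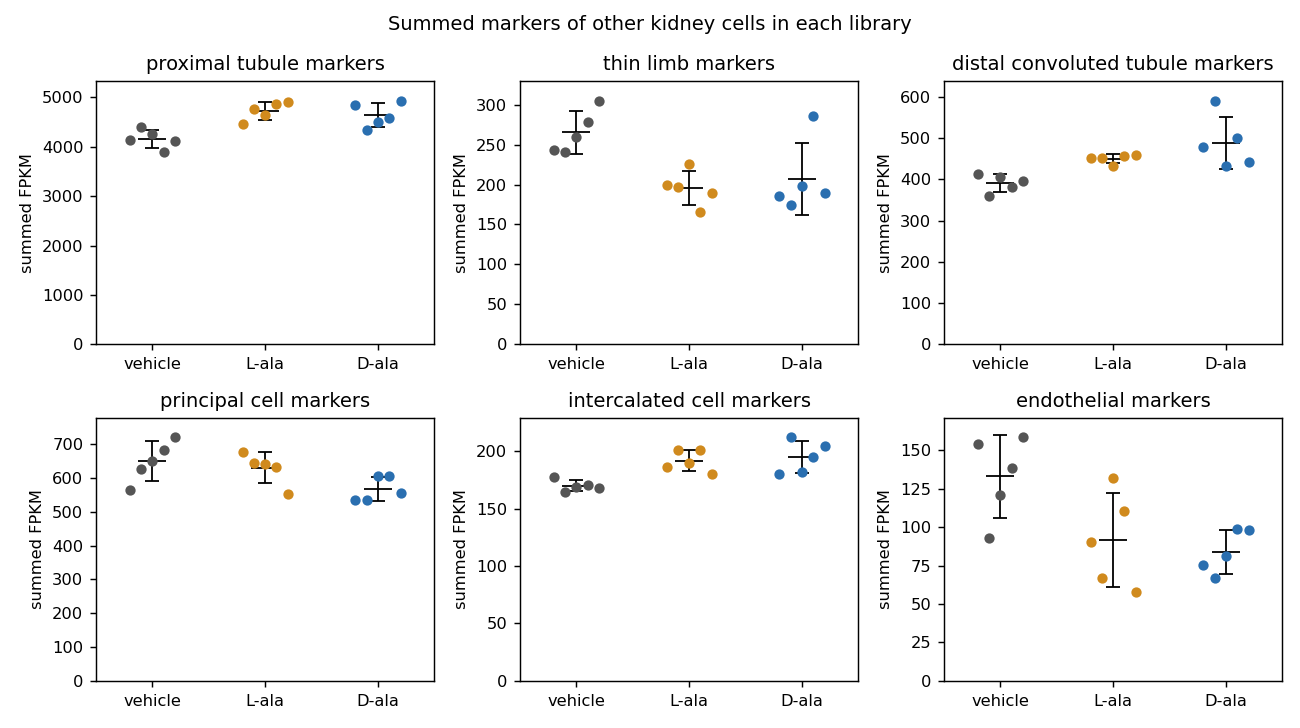
Summed FPKM of marker genes of 6 other kidney cell types in each library (points), with the mean and SD of each group of 5. Thin limb sums of every L-ala library lie below those of every vehicle library, and proximal tubule sums of every L-ala library lie above.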

How the data were processed

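Kidney RNA of 15 WT mouse libraries was sequenced, 5 each for vehicle, L-ala and D-ala. TRIzol extraction preceded a stranded mRNA library kit, per the labels' protocols. The submitters' processing notes name mm10, TopHat2 2.0.13, Bowtie2 2.2.3 and SAMtools 0.1.19. How genes were quantified, and with which annotation and strand setting, is not given in the sources used here. Antisense genes are annotated over Umod, Slc12a1 and Cldn19, and whether reads of the pairs were told apart is not known. Tests used the deposited FPKM column. The column headed as a count was treated as a score, because its deposited whole numbers had been rescaled per library and rounded. It served only to recover depth and as an alternative. The processed signal column was not used.

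The 11781 genes that reached 1 FPKM in at least 5 libraries entered as log2(FPKM + 1), on which changes of low genes are understated. Using limma 3.58.1 (R 4.3.3), all 15 libraries were fitted by group with trend and robust moderation, a procedure tested on simulated data. That simulation drew noise independently for each gene and planted larger changes than those called for the members. It therefore says nothing about calls of the members' size. A gene was called if its Benjamini-Hochberg adjusted p in that comparison was under 0.05. Exact two-sided permutation tests over 252 splits served for differences between 2 genes of a library. The members, the lists, the pathway groups and the tests were chosen with earlier results of these data known. The 28 correlations, the counting error and the count per FPKM were added after seeing the data. Besides the members, Casr, Cldn14, Egf and Stk39 were always named, with up to 3 called genes per pathway list and comparison by smallest p, and the 5 genes most correlated with the members. Gene models with Gm or Rik symbols were left out of the called and the correlated genes. Some genes and a motif are not reported here. GENCODE M21 (GRCm38) held 20911 of the gene symbols, held 1941 more under an older symbol and lacked 432. The spread between libraries serves as the precision of FPKM. Alternatives were other pseudocounts (0.1 and 0.5), filters, scalings, moderation, groups in the fit and values, the length and GC trends removed, and libraries left out.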

Additional observations from a re-analysis of the deposited data

Results flagged for a closer look

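A library was singled out where its gap to the nearest other library of its group of 5, divided by the range of the group, exceeded Dixon's 95% critical value of 0.71. Of 87 groups looked at, 8 met this, 5 of them for the 8 members, and chance gives about 1 in 20. In vehicle replicate 4, Umod (1628 FPKM, the others at 1398 to 1453) and Slc12a1 (224 FPKM, the others at 177 to 184) were both far above their group. Bsnd was high in L-ala replicate 5, at 20.6 FPKM against 15.4 to 16.1 in the other 4. Cldn16 was high in vehicle replicate 5, at 15.3 FPKM against 11.3 to 11.99. Cldn19 was low in D-ala replicate 2, at 8.46 FPKM against 14.7 to 17.1. Fxyd2 was low in L-ala replicate 5, at 4718 FPKM against 7240.4 to 7951. Cldn14 was high for its group in vehicle replicate 5 (0.38 FPKM) and in D-ala replicate 2 (0.087 FPKM, the others listed at 0), both under the level at which genes were tested.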

How the results depend on the processing

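No paired analysis was possible because the labels give the libraries no shared replicate numbers. The 27 alternatives give 648 values for the 8 members in 3 comparisons, of which 606 kept their direction and side of the threshold, 27 lost a call, 5 gained one and 10 changed sign. The number of genes called for L-ala against vehicle fell from 1297 to 575 under quantile normalization, 603 with only the compared groups in the fit and 746 with the length trend removed, and for D-ala against L-ala from 1611 to 975 with only the compared groups. Under quantile normalization 740 of 1576 calls were higher for D-ala and 234 of 575 for L-ala, against 769 of 1349 and 763 of 1297. Leaving out 1 library gave 814 (without vehicle replicate 4) to 1591 genes for D-ala against vehicle. It gave 321 (without vehicle replicate 4) to 2577 (without L-ala replicate 5) for L-ala against vehicle, and 770.0 (without L-ala replicate 4) to 2763 (without L-ala replicate 5) for D-ala against L-ala.

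The count of members called for L-ala against vehicle was 0 with no filter on low values and without the 3 libraries of lowest depth (vehicle replicate 1, L-ala replicates 4 and 5). It was 1 under quantile normalization (Cldn10, with Umod and Bsnd lost), and 1 (Umod) without trend and robust moderation and with only the compared groups. With the length trend removed it was 2, but these were Cldn10 and Cldn16. Leaving out 1 library gave 0 to 2 members for L-ala against vehicle, 0 to 1 for D-ala against L-ala and 0 to 0 for D-ala against vehicle, where quantile normalization gave 1. The cause was not tested.

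Changes of sign concerned values that had not passed, and leaving out 1 library in turn gave the ranges below. For D-ala against vehicle, Cldn19 ran from -0.171 to 0.063 and Adcy6 from -0.025 to 0.014, with Adcy6 also at 0.016 with the length trend removed and 0.014 without the 3 libraries of lowest depth, and Egf was at -0.006 under quantile normalization. For L-ala against vehicle, Cldn10 ran from -0.053 to 0.012, Cldn19 from -0.096 to 0.193 and Wnk4 from -0.02 to 0.078. In that comparison quantile normalization gave -0.052 for Fxyd2 and -0.062 for Wnk4, removal of the GC trend -0.005 for Wnk4, removal of the length trend -0.02 for Cldn19 and -0.037 for Cldn7, and the column headed as a count -0.129 for Cldn19. For D-ala against L-ala, Kcnj1 ran from -0.085 to 0.011 and was at 0.034 under quantile normalization, Cldn19 ran from -0.292 to 0.029, and Cldn10 was at 0.067 with the length trend removed. In the same comparison Slc4a11 ran from -0.231 to 0.097, Tmem207 from -0.285 to 0.117, Sostdc1 from -0.078 to 0.113 and Pla1a from -0.053 to 0.153, with Sostdc1 at -0.08 and Pla1a at -0.031 without the 3 libraries of lowest depth. Within a library, Slc12a1 minus Umod ran from -0.068 to 0.017 for D-ala against vehicle (0.001 with the length trend removed) and from -0.014 to 0.091 for L-ala, and for D-ala Cldn16 minus Cldn19 ran from -0.136 to 0.074 and Cldn10 minus Cldn16 from -0.019 to 0.065. Counting error limits Cldn16, Cldn19, Ptger3 and Bsnd most.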
